A study of Mus musculus with 90 samples.

Results

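Gene expression in the frontal cortex was compared between APP/PS1 mice infused for 28 days with an antisense oligonucleotide (ASO) against Cd33 and mice infused for as long with a non-target control ASO. The 28 arrays whose titles give this tissue and this duration were taken, 14 for each ASO, 1 array per animal, out of 90 arrays in the series. All 9741 genes that had a named, detected probe were tested. Both groups were APP/PS1, a double transgenic strain whose human transgenes, a mutant amyloid precursor protein and a mutant presenilin, give it amyloid plaques with age. Each mouse received 40 µg of ASO per day in 6 µL per day from an osmotic pump joined to a cannula in the right lateral ventricle. Infusion began at 18 weeks of age, the pump was exchanged for a fresh one midway, and the tissue was collected at 22 weeks, when infusion ended. The piece measured was the left cortex in front of a single coronal cut, as total RNA of all its cells, on Illumina bead arrays. No group without an ASO was analysed here, so every difference below is between the 2 ASOs.

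CD33 is a receptor of the Siglec family on microglia and other myeloid cells. It binds sialic acid on cell surfaces, and motifs in its intracellular tail recruit phosphatases that dampen activating signals such as those of TREM2 and TYROBP. Variants of the human gene are associated with the risk of Alzheimer disease, and in mouse models of amyloid CD33 is known for limiting the uptake of amyloid by microglia. Around plaques, microglia take on a state with raised genes of phagocytosis, lysosomes, lipid handling and antigen presentation, while the borders of the brain (meninges, perivascular space and choroid plexus) hold macrophages of their own.

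The arrays were of like quality. Between 45.9% and 50.9% of probes were detected per array, and arrays of a group correlated at 0.982 to 0.993. Every chip held as many CD33 as control arrays, 3 of each on 2 chips and 2 of each on the other 4. The first principal component held 17.9% of the variance and separated chips (adjusted R2 of 0.848 for the chip and -0.007 for the ASO). Of the 14 neocortical layer genes tested, 12 were detected on all 28 arrays. Slc17a7, the vesicular glutamate transporter of cortical projection neurons, had mean log2 intensities of 13.14 (control group) and 13.09 (CD33 group). Detection does not mark the cortex alone, since all 9 striatal neuron genes tested were also detected on all 28 arrays. The precision is limited by the number of arrays. The differences are given as log2 of CD33 over control ± SE, and a gene is said to have risen or fallen where limma's adjusted p was under 0.05.

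Cd33 itself was lower under its ASO. Across the control arrays its log2 intensity had a lowest value of 6.37, a median of 6.99 and a highest value of 7.37. The CD33 arrays had 4.97, 6.09 and 6.83. The difference was -0.90 ± 0.13 (n = 14 and 14; limma adjusted p = 5.1e-05), which puts the CD33 group at 53.7% of the control group. A permutation test of the ASO labels, 2-sided with 100000 permutations, gave p = 1e-05, the smallest it can give. In 11 of the 14 CD33 animals Cd33 lay below the lowest control, and on 4 of the 14 arrays it was not detected. CD33 replicates 1, 11 and 12 lay inside the control range, at 6.81, 6.78 and 6.83. Replicates 11 and 12 shared chip 11, the only chip of the 6 on which Cd33 was not lower (0.25), against -1.53 to -0.85 on the others. With that chip left out, an alternative chosen after these values were seen, the difference was -1.09. A second Cd33 probe, detected on 0 of 14 CD33 and 1 of 14 control arrays, gave -0.24 ± 0.12. The RNA of bulk tissue does not separate fewer cells of a type from less RNA per cell, which cannot be told apart here for any gene below.

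**Figure D1:**
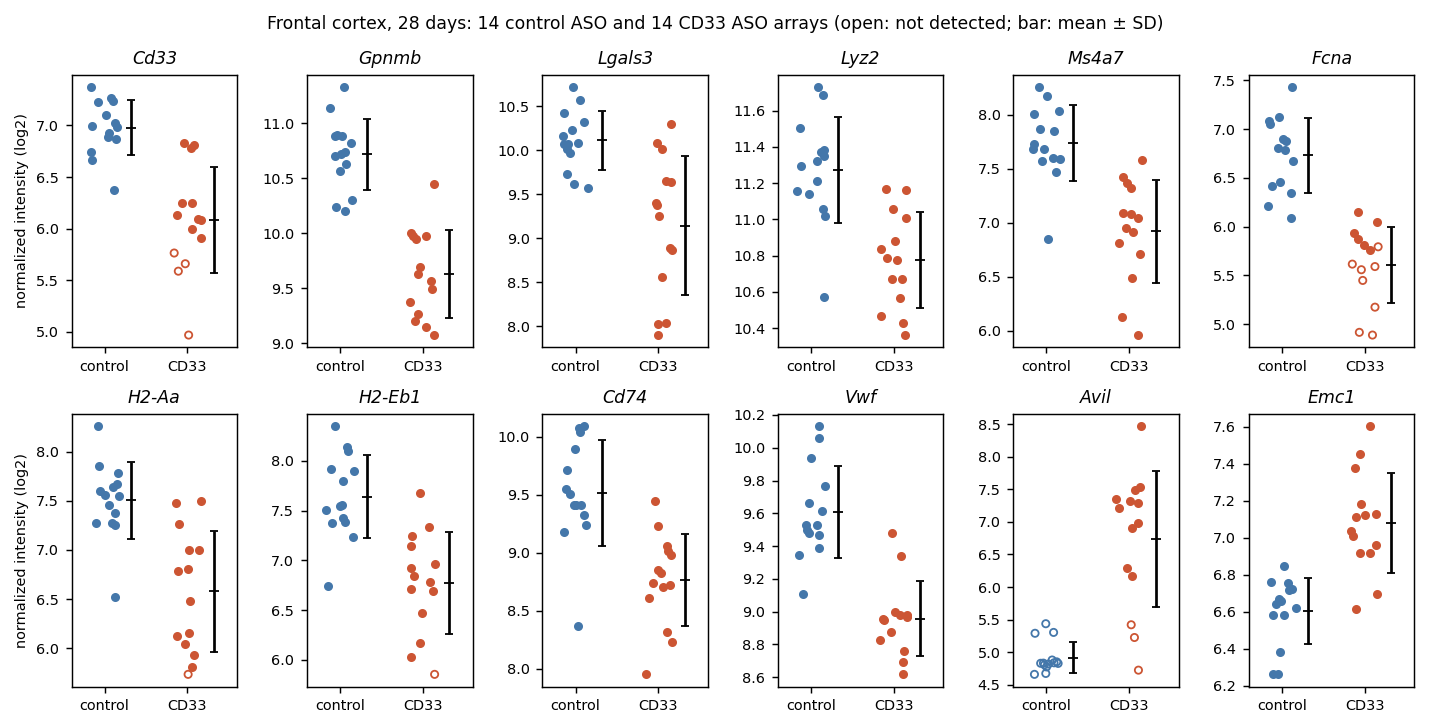
Log2 normalized intensity of 12 genes on each array of the frontal cortex at 28 days, control ASO in blue and CD33 ASO in red, with the mean ± SD of each group at its side and open points where the probe was not detected. Of the 14 CD33 arrays, 11 lie below every control for Cd33, 13 for Gpnmb and 13 for Fcna, while Avil was detected on 11 CD33 arrays and on 0 control arrays.

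Beyond Cd33, macrophage and phagocyte genes, the classical class II antigen presentation genes and Vwf made up most of the largest falls, and Avil and Fpr2 the largest rises. In all, 46 of 9741 genes passed (0.472% of the genes tested), of which 31 fell (0.318%) and 15 rose (0.154%). Of these, 14 fell and 3 rose by more than 0.5. Over all genes the median difference was 0.0015, with a 5th percentile of -0.17 and a 95th of 0.15. An unadjusted p under 0.05 was reached by 841 genes (8.63%), where chance alone would give 487. Among the 46, 37 went in 1 direction on all 6 chips, against 5.86% of all genes, and the other 9 did so on 5 chips. For 27 of the 46, at least 7 of the 14 CD33 arrays lay outside the control range in the direction of the difference, which held for 1.59% of all genes. These arrays also chose the 46 genes, so both counts describe them and test nothing. A fit with a term for the chip called 65 genes (0.667%), among them all 46.

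**Figure D2:**
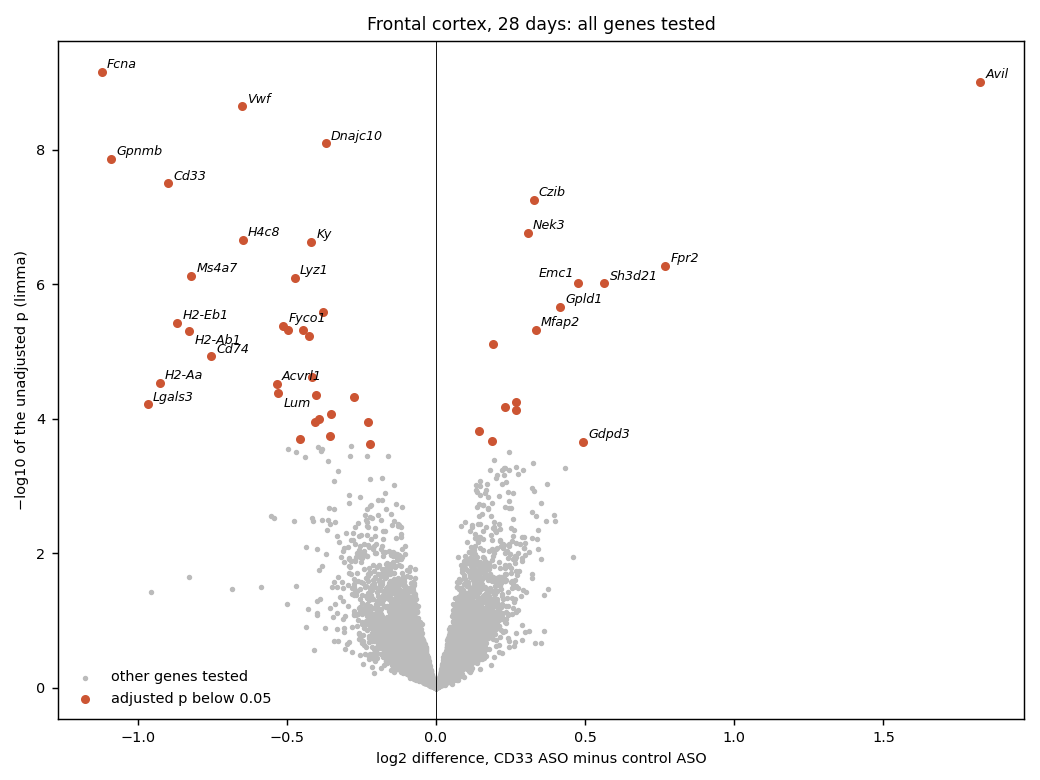
Log2 difference (CD33 ASO minus control ASO, x axis) against −log10 of limma's unadjusted p (y axis) for the 9741 genes tested, with the 46 genes past an adjusted p of 0.05 in red. Fcna, Gpnmb and Cd33 lie far to the left and Avil far to the right, at 1.83.

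Gpnmb, Lgals3 and Lyz2 were the members of the plaque-associated microglia list that fell. Gpnmb, a glycoprotein of the lysosomal membrane, had a lowest, median and highest log2 intensity of 10.21, 10.73 and 11.33 in the controls and of 9.08, 9.60 and 10.44 in the CD33 group. It fell by 1.09 ± 0.16 (limma adjusted p = 2.7e-05), and 13 of the 14 CD33 arrays lay below every control array. A second, dimmer probe of Gpnmb gave -0.60 ± 0.15.

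Lgals3 encodes galectin-3, a lectin that gathers on damaged lysosomes. Its control arrays lay between 9.57 and 10.72 around a median of 10.08, and its CD33 arrays between 7.90 and 10.30 around 9.32. The CD33 group was the wider of the 2 (SD 0.790 against 0.335), and 9 of its arrays lay below the lowest control. Lgals3 fell by 0.97 ± 0.22 (limma adjusted p = 0.017), and its difference without chip 11 was -0.86 (adjusted p = 0.072). Lyz2, a lysozyme of macrophages, ran from 10.57 over a median of 11.31 to 11.73 in the controls and from 10.36 over 10.78 to 11.17 under the CD33 ASO. It fell by 0.50 ± 0.10 (limma adjusted p = 0.0021), with the groups overlapping on most CD33 arrays. Lyz1, its direct neighbour on chromosome 10 and a close copy, fell by 0.47 ± 0.08, and the probes of the pair may share transcripts.

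The remaining members of that list had differences close to 0. In all, 3 of 27 tested members fell and 0 rose, 20 lay below 0 (49.4% of all genes did), and the median was -0.02. Trem2, the lipid receptor through which microglia enter the plaque-associated state, had -0.04 ± 0.07, and its adaptor Tyrobp had -0.01 ± 0.07. The difference was -0.00 ± 0.09 for Cst7, a protease inhibitor that is a standard marker of the state, and -0.09 ± 0.19 for Clec7a, a receptor for fungal glucans. Apoe had -0.09 ± 0.04 and Axl, a receptor for dying cells, -0.02 ± 0.05. Among the 8 tested genes of TYROBP and TREM2 signalling 0 passed limma's threshold or an unadjusted p of 0.05, with a median of -0.04. Of the 19 lysosomal genes tested 0 passed (1 at an unadjusted p under 0.05, median -0.03), with the smallest p for Laptm5, at -0.18 ± 0.05 (limma adjusted p = 0.099). The protease Ctsc, which activates the granule proteases of leukocytes and is not on either list, fell by 0.28 ± 0.06 (adjusted p = 0.014).

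Cd33 was the only gene of the homeostatic microglia list that passed, 1 of 14 tested. Limma's unadjusted p was under 0.05 for 3 of the 14, against 8.63% of all genes. Besides Cd33 these were Sall1 at 0.25 ± 0.09 and P2ry6 at -0.18 ± 0.07, which lay in opposite directions. Tmem119, a surface marker of resident microglia, had a mean of 9.41 under the CD33 ASO and 9.38 under the control ASO (0.02 ± 0.08). Cx3cr1, the fractalkine receptor, had 0.04 ± 0.10 and P2ry12, a receptor for nucleotides released by damaged cells, -0.16 ± 0.18. The median of the list was -0.06, with 11 members below 0. The mean of the list on single arrays ran from 9.28 to 9.72 in the CD33 group and from 9.52 to 9.81 in the controls, ranges that overlapped. Of the 8 tested Siglec and inhibitory receptors, Cd33 alone passed. Lilrb4a, an inhibitory receptor of myeloid cells, had -0.36 ± 0.11 (adjusted p = 0.18) and Siglech, a Siglec of microglia, -0.11 ± 0.11.

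All 3 tested chains of the classical class II molecules, and the invariant chain that escorts them, fell together. MHC class II presents peptides from engulfed material to CD4+ T cells. H2-Ab1, H2-Aa and H2-Eb1 lie side by side on chromosome 17 with no protein-coding gene between them. Promoter windows of these genes in RefSeq on GRCm38.p6 were searched on both strands for the letters of 2 elements that class II promoters are known to carry, the Y box (GATTGG) and the X box (written as CNTAGNNAC). Windows for H2-Aa and H2-Eb1 were at hand, each from 250 bases before the start to 50 after it, printed here because both genes fell, with matches in capitals.
H2-Aa, minus strand, chr17:34287774-34288073: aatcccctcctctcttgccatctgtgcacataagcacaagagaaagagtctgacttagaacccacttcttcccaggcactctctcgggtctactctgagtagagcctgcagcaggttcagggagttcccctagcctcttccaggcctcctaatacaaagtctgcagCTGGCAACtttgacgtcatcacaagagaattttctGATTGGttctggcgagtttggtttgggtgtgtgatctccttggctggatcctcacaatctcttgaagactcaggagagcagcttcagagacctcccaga
H2-Eb1, plus strand, chr17:34305617-34305916: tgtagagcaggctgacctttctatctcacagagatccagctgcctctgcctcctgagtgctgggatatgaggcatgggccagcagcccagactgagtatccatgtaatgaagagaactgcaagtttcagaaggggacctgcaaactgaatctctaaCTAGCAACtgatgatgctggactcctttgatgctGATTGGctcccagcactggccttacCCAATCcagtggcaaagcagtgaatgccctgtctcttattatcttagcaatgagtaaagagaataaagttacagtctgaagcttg
Each window held GATTGG, at base 202 of H2-Aa and 191 of H2-Eb1, and H2-Eb1 held it again on the opposite strand. Of 32851 mouse promoter windows of this length, 16.1% held that motif. CNTAGNNAC, which 10.7% of windows held, had 0 matches in both. The other letters in capitals match CTNGCAAC, which was written after the windows had been seen: it lay before GATTGG, with 27 bases between them in H2-Aa and 26 in H2-Eb1. It was found in 3.42% of all windows, and together with GATTGG in 0.572%. A match describes the letters alone.

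H2-Aa, the alpha chain of the I-A molecule, had control values from 6.52 over a median of 7.55 to 8.26. The CD33 values ran from 5.73 over 6.63 to 7.50. H2-Aa fell by 0.93 ± 0.20 (limma adjusted p = 0.010). Below the lowest control lay 7 of the 14 CD33 arrays, and 8 controls lay above the highest CD33 array. H2-Eb1, the beta chain of the I-E molecule, went from 6.75, 7.55 and 8.35 (lowest, median, highest) in the controls to 5.85, 6.81 and 7.68. It fell by 0.87 ± 0.16 (adjusted p = 0.0020). H2-Ab1, which pairs with H2-Aa, fell by 0.83 ± 0.16 (adjusted p = 0.0021), and its 3 other probes gave values between -0.79 and -0.53. Cd74 had the broadest overlap of the 4: controls lay between 8.37 and 10.09, CD33 arrays between 7.95 and 9.44, and only 3 CD33 arrays were below the lowest control. It fell by 0.75 ± 0.15 (adjusted p = 0.0044), and a second probe gave -0.75 ± 0.15. All 4 genes were lower on every chip.

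The rest of the class II list did not pass: 4 of 13 tested members fell, 0 rose and the median was -0.09. Of the 13, 10 lay below 0 (49.4% of all genes did). Limma's unadjusted p was under 0.05 for 5 of them, against 8.63% of all genes. H2-DMb1 and H2-DMa, which load peptides onto class II, had -0.15 ± 0.09 and -0.09 ± 0.05. Rfxap and Rfxank, subunits of the factor that binds the X box, had 0.03 ± 0.05 and 0.04 ± 0.11. Rfxank was detected on only 7 of 14 arrays of each group. Also on the list, Ciita had no named probe and Rfx5 was not tested. Class I presentation had 0 limma calls among 12 genes tested, 0 at an unadjusted p under 0.05, and a median of -0.09. H2-D1 had the largest class I difference, -0.24 ± 0.13, and B2m, the light chain, had -0.04 ± 0.06.

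Fcna and Ms4a7, which are expressed by macrophages of the brain's borders and of other organs more than by microglia, fell. Fcna encodes ficolin-A, a secreted lectin that starts the lectin pathway of complement. In the controls it was detected on 14 of 14 arrays, between 6.09 and 7.43 with a median of 6.80. In the CD33 group it was detected on 6 of 14, between 4.89 and 6.15 with a median of 5.69. It fell by 1.12 ± 0.14 (limma adjusted p = 4.7e-06), the largest fall of all genes tested, and 1 CD33 array lay inside the control range. Ms4a7, a multi-pass membrane protein of macrophages, had 6.85, 7.70 and 8.26 (lowest, median, highest) in the controls and 5.96, 7.00 and 7.58 in the CD33 group. It fell by 0.82 ± 0.14 (adjusted p = 6.0e-04), and 11 of the 14 controls lay above every CD33 array.

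The other border macrophage genes did not pass, so 2 of 7 tested fell. Mrc1, the mannose receptor, had -0.23 ± 0.11 (adjusted p = 0.53) and Cbr2 -0.22 ± 0.12, while Pf4 had 0.05 ± 0.13 and Stab1, a scavenger receptor, 0.06 ± 0.11. Ms4a6d, a second member of the MS4A cluster, fell by 0.40 ± 0.09 (adjusted p = 0.014). The human MS4A genes, like CD33, lie in a region associated with Alzheimer risk. Of 18 tested mouse counterparts of risk genes, Cd33 and Ms4a6d were the only ones that passed, and the median was -0.04. Of the complement genes, Fcna was the 1 of 10 that fell, and C2, which joins the lectin and classical pathways, had -0.39 ± 0.10 (adjusted p = 0.053). Limma's unadjusted p was under 0.05 for 5 of the 10, against 8.63% of all genes. Among these were Serping1 at -0.34 ± 0.11 and Masp2 at -0.29 ± 0.12. In this list 7 genes lay below 0, and the median was -0.09. C1qa, C1qb and C1qc, the chains of the first classical component, had -0.13 ± 0.06, -0.05 ± 0.05 and -0.06 ± 0.06.

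Lists of inflammatory signalling had 0 genes past limma's threshold, and 2, 0 and 2 at an unadjusted p under 0.05. These were the interferon-stimulated genes (17 tested, median -0.03), Toll-like receptors and cytokines (12 tested, median -0.01) and chemokines (14 tested, median -0.04). The smallest p in each belonged to Ifitm3 (-0.21 ± 0.08), Cd14 (-0.15 ± 0.09) and Cxcl16 (-0.19 ± 0.08). Alox5ap, the protein that hands arachidonic acid to leukotriene synthesis, fell by 0.22 ± 0.06 (limma adjusted p = 0.049), the smallest fall among the 46 and the gene just inside the threshold. It did not pass in 18 of the 28 fits that left out 1 array, with an adjusted p of up to 0.097. Among the genes of APP and its processing 0 of 14 passed limma's threshold (1 at an unadjusted p under 0.05) and 4 lay below 0 (median 0.03). App had 0.17 ± 0.05 (adjusted p = 0.13), the beta-secretase gene Bace1 0.00 ± 0.07.

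Vwf, the clotting glycoprotein that endothelial cells store and release, fell on every chip. It had a lowest, median and highest value of 9.11, 9.53 and 10.13 in the controls, and of 8.62, 8.96 and 9.48 in the CD33 group. The difference was -0.65 ± 0.09 (limma adjusted p = 7.3e-06), and 12 of the 14 CD33 arrays lay below every control. Chip by chip it ran from -0.83 to -0.52. Other endothelial genes did not pass: of 15 tested Vwf was the only one, 12 lay below 0 and the median was -0.05. Pecam1, the platelet and endothelial adhesion molecule, had -0.25 ± 0.09 (adjusted p = 0.28), Ly6c1 had -0.22 ± 0.06 (adjusted p = 0.10), and Plvap, a protein of fenestrated endothelium, 0.07 ± 0.06. Acvrl1, an endothelial receptor for bone morphogenetic proteins that was not on the list, fell by 0.53 ± 0.12 (adjusted p = 0.010), with detection on 5 of 14 CD33 and 13 of 14 control arrays. Bmp7, a ligand of that family, fell by 0.44 ± 0.09 (adjusted p = 0.0021), and Tgm2, a protein-crosslinking transglutaminase, by 0.43 ± 0.08 (adjusted p = 0.0024).

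Lum, a proteoglycan that spaces collagen fibrils and is made by meningeal fibroblasts, fell by 0.53 ± 0.12 (limma adjusted p = 0.013). Its neighbour on chromosome 10, the related proteoglycan Dcn, stood just outside the threshold at -0.38 ± 0.10 (adjusted p = 0.057). So did Slc6a13, a GABA transporter of the meninges, at -0.47 ± 0.12 (adjusted p = 0.058). Of 16 mural cell and fibroblast genes Lum alone passed, with a median of -0.02. Of these 16 genes, 9 lay below 0. Among the others, Col1a1 had 0.14 ± 0.17 and Islr 0.21 ± 0.13. Both were dim, with detection on 8 and 10 of 14 CD33 arrays and on 7 of 14 control arrays each. Apod, a lipid-carrying lipocalin of oligodendrocytes and perivascular fibroblasts, fell by 0.42 ± 0.09 (adjusted p = 0.0087), and Apoc1, an apolipoprotein of macrophages and astrocytes, by 0.46 ± 0.11 (adjusted p = 0.045). They were the 2 of 13 lipid transport genes that passed.

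The other genes that fell belong to no group named so far. H4c8, a histone H4 gene, fell by 0.65 ± 0.11 (limma adjusted p = 2.3e-04). Its near-identical copies H4c12 and H4c11 had -0.50 ± 0.13 and -0.38 ± 0.10 (adjusted p = 0.055 and 0.055), and probes of these copies may share transcripts. Dnajc10, a co-chaperone that reduces disulfide bonds in the endoplasmic reticulum, overlapped little between the groups. Its controls lay between 10.97 and 11.29 (median 11.15) and its CD33 arrays between 10.52 and 11.06 (median 10.76). It fell by 0.37 ± 0.05 (adjusted p = 1.9e-05), and 12 arrays of each group lay outside the range of the other. Fyco1, an adaptor that links autophagosomes to motor proteins, fell by 0.51 ± 0.10 and Ky, a peptidase known from muscle, by 0.42 ± 0.07. Nnat, an imprinted membrane protein of neurons, fell by 0.41 ± 0.10, while its second probe, detected on every array, gave -0.15 ± 0.10 (unadjusted p = 0.12). Nnat did not pass with the mean of its probes, nor in 8 of the 28 fits that left out 1 array. Camk1g, a calcium-dependent kinase of neurons, fell by 0.35 ± 0.09. Srrm2, a scaffold of nuclear speckles, fell by 0.35 ± 0.08 with every CD33 array inside the control range. The low end of that range was control replicate 3 alone, at 10.02, and the next lowest control lay at 10.545. Its median was 10.77 in the controls and 10.34 in the CD33 group. A second probe, detected on every array, gave -0.33 ± 0.12. Srrm2 did not pass with the 28 arrays fitted alone, nor with the mean of its probes. Dnaic1, an arm protein of motile cilia, fell by 0.38 ± 0.07, the acetyltransferase family gene Nat8f4 by 0.39 ± 0.09 and Hr, a corepressor of nuclear receptors, by 0.23 ± 0.05.

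Avil was the one gene that passed without being detected on any array of 1 group. It encodes advillin, an actin-binding protein of the gelsolin and villin family best known from sensory neurons. It was detected on 0 of 14 control arrays, where values lay between 4.66 and 5.44 (median 4.83), and on 11 of 14 CD33 arrays, where they lay between 4.73 and 8.47 (median 7.10). Against the detection floor of the control arrays it was at least 1.91-fold higher, a bound that was not itself tested. The measured difference, which rests on control values at background, was 1.83 ± 0.24 (limma adjusted p = 4.7e-06). The 3 CD33 arrays without detection were replicates 5, 11 and 12, at 5.23, 5.42 and 4.73. Of its family, 6 were tested: Vill, a villin-like protein, had 0.32 ± 0.13 (adjusted p = 0.45), and Gsn, gelsolin itself, -0.05 ± 0.09. Vill was detected on 9 of 14 CD33 and 1 of 14 control arrays, so its control values lie at background. Gsn was detected on 11 and 10.

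Fpr2, a receptor of phagocytes for formyl peptides and for amyloid peptides, rose by 0.77 ± 0.13 (limma adjusted p = 4.7e-04). Its controls lay between 4.48 and 5.77 (median 5.32), with detection on 1 of 14. The CD33 arrays lay between 5.30 and 7.38 (median 5.99), with detection on 8 of 14, and 8 were above the highest control. On 5 of the 6 chips the CD33 group was higher for Fpr2, and chip 11 had a difference of -0.03. Within the monocyte and neutrophil list Fpr2 thus rose while Lyz1 fell. The other 4 tested members did not pass, among them Lcn2 at -0.68 ± 0.31 and Plac8 at -0.40 ± 0.15. Of 7 tested formyl peptide and purine receptors Fpr2 was the only one that passed.

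Emc1, a subunit of the complex that inserts proteins into the membrane of the endoplasmic reticulum, rose by 0.48 ± 0.08 (limma adjusted p = 6.3e-04). Values ran from 6.26 over 6.65 to 6.85 in the controls and from 6.61 over 7.07 to 7.60 in the CD33 group, and 12 of the 14 CD33 arrays lay above every control. Its other probes gave 0.06 ± 0.12 and 0.05 ± 0.12 but were detected on at most 3 arrays of a group. With the mean of its probes Emc1 did not pass (limma adjusted p = 0.071). With Dnajc10 falling and Emc1 rising, 2 of the 15 tested genes of the endoplasmic reticulum stress list passed. Limma's unadjusted p was under 0.05 for 5 of the 15, against 8.63% of all genes. Among the 5 were Xbp1 at -0.14 ± 0.06 and Hsp90b1 at -0.13 ± 0.06. The stress markers Ddit3 and Hspa5 had -0.12 ± 0.06 and -0.21 ± 0.18. Sh3d21, a protein with SH3 domains, rose by 0.56 ± 0.10 (adjusted p = 6.3e-04), with 11 CD33 arrays above every control.

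The other 11 genes that rose belong to varied classes. Gdpd3, a lipid-cleaving phosphodiesterase, rose by 0.49 ± 0.12 (limma adjusted p = 0.048). Gpld1, which cuts glycolipid anchors of surface proteins, rose by 0.42 ± 0.08 (adjusted p = 0.0013). Mfap2, a protein of elastic microfibrils, rose by 0.33 ± 0.06, Czib, a zinc-binding protein, by 0.33 ± 0.05, and Nek3, a kinase of the NIMA family, by 0.31 ± 0.05. The further probes of Mfap2 and Nek3 gave smaller values, from 0.14 to 0.18, and that of Dctn4 0.02. Tcf7l1, a repressor of Wnt target genes, and Trappc9, a subunit of a vesicle tethering complex, each rose by 0.27 ± 0.06. The remaining 4 were the zinc finger gene Zkscan4 at 0.23, Hibadh, an enzyme of valine breakdown, at 0.19, the dynactin subunit Dctn4 at 0.19, and Anapc4, a subunit of the anaphase-promoting complex, at 0.14.

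**Figure D3:**
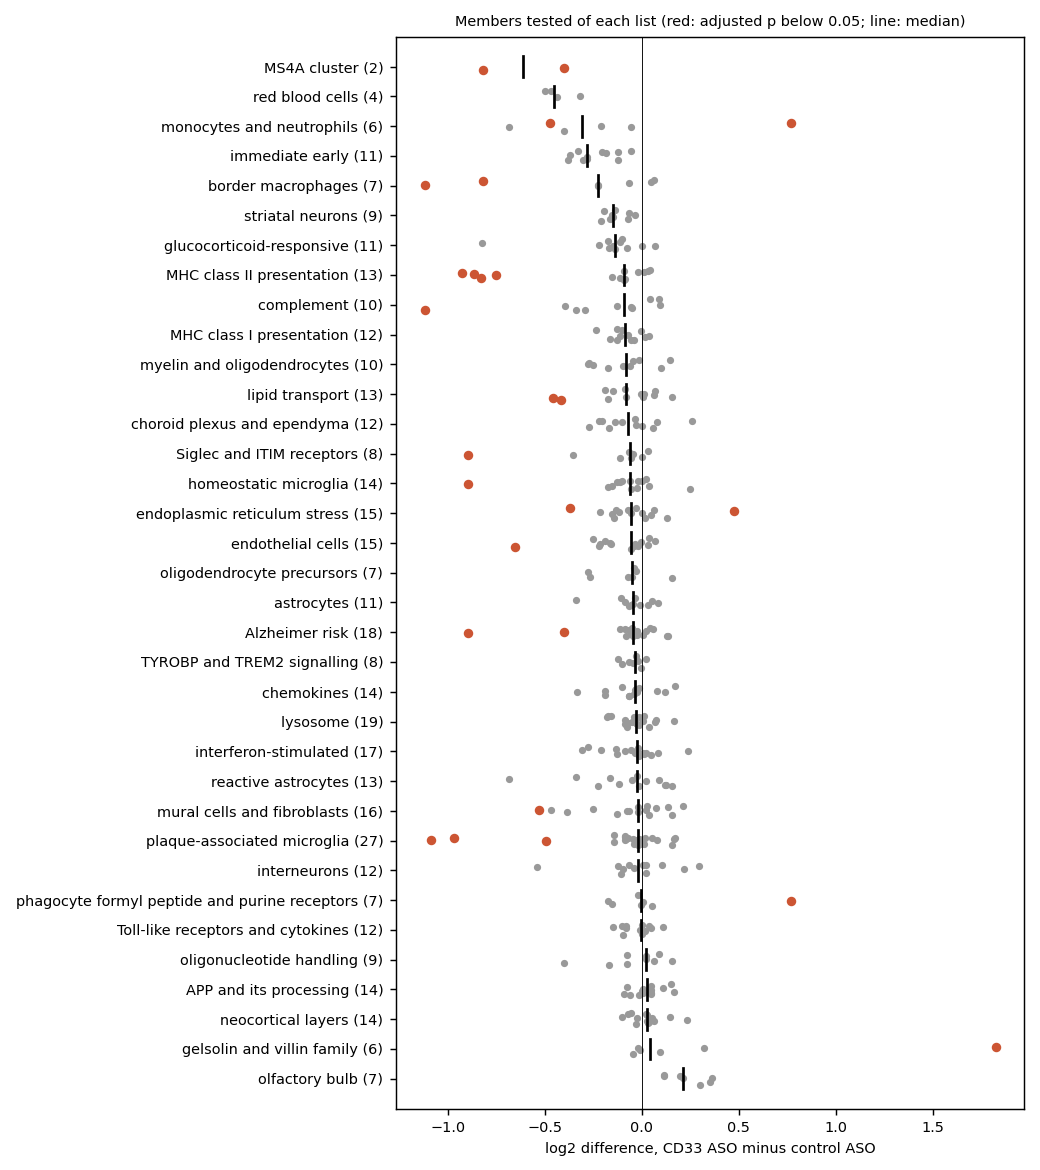
Log2 difference (x axis, CD33 ASO minus control ASO) of each tested member of the 35 gene lists, with the number tested in parentheses, the median as a black line and genes past an adjusted p of 0.05 in red. Most members lie near 0, with, among the red points, the 4 class II genes, Gpnmb, Lgals3, Fcna, Cd33 and Ms4a7 to the left of -0.7 and Avil to the right.

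The 35 lists held 371 tested genes and 20 of the 46 that passed, and 26 belonged to none. Lists for other cells and tissue that the piece can hold had few calls, but several lay to 1 side. All 9 striatal neuron genes tested were below 0 (median -0.15), with Tac1 and Drd1 the smallest in p at -0.16 ± 0.08 and -0.19 ± 0.09. All 7 olfactory bulb genes were above 0 (median 0.21), with Sp8 and Meis2 the smallest in p at 0.36 ± 0.17 and 0.11 ± 0.05. All 4 red blood cell genes were below 0 (median -0.45), with Slc4a1 at -0.47 ± 0.21 and Hba-a1 at -0.32 ± 0.16. All 11 immediate early genes, which neurons switch on with activity, were below 0 (median -0.28), with Egr4 at -0.38 ± 0.15 and Homer1 at -0.12 ± 0.05. Of the 11 glucocorticoid-responsive genes 10 were below 0 (median -0.14), with Tsc22d3 at -0.17 ± 0.07 and Plin4 at -0.83 ± 0.35. None of these genes passed limma's threshold (2, 2, 2, 3 and 4 had an unadjusted p under 0.05, against 8.63% of all genes). Genes of a list share animals, so the counts are no independent trials.

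The array means of these lists overlapped between the groups. They ran from 10.0 to 10.7 under the CD33 ASO and 10.2 to 10.7 under the control ASO for the striatal list, from 7.28 to 8.70 and 7.25 to 8.38 for the olfactory bulb, from 8.45 to 10.2 and 9.24 to 10.6 for red blood cells, and from 5.92 to 6.43 and 6.12 to 6.58 for choroid plexus and ependyma. With the means of the red blood cell, choroid plexus and ependyma, and mural cell and fibroblast lists as covariates, 30 of the 46 genes passed and no further ones. Lgals3, H2-Aa, Acvrl1, Tgm2, Apod and Ms4a6d were among the 16 that did not, at -0.80, -0.71, -0.50, -0.33, -0.37 and -0.35. Whether the striatal, olfactory bulb or immediate early levels bear on the result was not tested. Astrocyte (11 tested), reactive astrocyte (13), myelin (10), oligodendrocyte precursor (7), neocortical layer (14) and interneuron (12) lists had 0 calls by limma (0, 3, 3, 2, 0 and 3 at an unadjusted p under 0.05), with medians from -0.08 to 0.03. Over all genes 8.63% had such a p. Gfap had -0.03 ± 0.08, and the 2 smallest p among myelin genes were those of Mog (-0.27 ± 0.09) and Cldn11 (-0.10 ± 0.04). Among reactive astrocyte genes they were those of Cp (-0.34 ± 0.10, limma adjusted p = 0.11) and Emp1 (-0.23 ± 0.10). For the precursor list they were those of Neu4 (-0.28 ± 0.09) and Gpr17 (-0.26 ± 0.12). For the interneuron list they were those of Cort (-0.54 ± 0.17) and Dlx1 (0.30 ± 0.11). Of the 9 genes that bind or cleave oligonucleotides 0 passed limma's threshold (1 at an unadjusted p under 0.05), with Rnaseh1, which cuts RNA paired with DNA, at 0.15 ± 0.08.

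Among animals of 1 group, Cd33, Gpnmb and Avil varied together in the CD33 group. Correlations were computed over 20 pairs, 10 in each group of 14 animals, among Cd33, Cd74, Gpnmb, Vwf and a gene detected on most arrays of 1 group only, Avil in the CD33 group and Fcna in the controls. In the CD33 group Cd33 and Gpnmb had Pearson's r = -0.78 (permutation p = 9.6e-04, adjusted 0.0055) and Spearman's rho = -0.74 (permutation p = 0.0037, adjusted 0.025). Animals with less Cd33 thus tended to have more Gpnmb within a group that as a whole lay below the controls, with exceptions such as CD33 replicate 2 (Cd33 5.59, Gpnmb 9.27). CD33 replicate 4, in which Cd33 was not detected (4.97), had the highest Gpnmb (10.44), Lgals3 (10.30), Avil (8.47) and Fpr2 (7.38) of the 14. Of the CD33 animals with Cd33 in the control range, replicates 11 and 12 had Gpnmb at 9.08 and 9.37, Lgals3 at 8.03 and 8.03, and Avil undetected. Replicate 1 had Gpnmb at 9.14 and Lgals3 at 8.56, but Avil was detected at 6.30, above every control.

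Cd33 and Avil had r = -0.78 (permutation p = 0.0011, adjusted 0.0055) and rho = -0.68 (permutation p = 0.0096, adjusted 0.048). Gpnmb and Avil had r = 0.80 (permutation p = 6e-04, adjusted 0.0055) and rho = 0.81 (permutation p = 8.2e-04, adjusted 0.0082). In the CD33 group Cd33 was not detected on 4 arrays and Avil on 3, and values at background have no firm order. Over the arrays on which both genes were detected, chosen after the correlations were seen, Pearson's r was -0.82 for Cd33 and Gpnmb (n = 10), -0.62 for Cd33 and Avil (n = 7) and 0.82 for Gpnmb and Avil (n = 11), given as values without a test. Over all 14 but the 2 animals farthest from the median, these 3 were -0.67, -0.60 and 0.68. After the mean of each chip was subtracted they were -0.73, -0.81 and 0.86, and without CD33 replicate 12 they were -0.79, -0.73 and 0.85; both alternatives were chosen after the correlations were seen. In the controls Cd33 and Gpnmb had r = 0.59 (permutation p = 0.026, adjusted 0.088) and rho = 0.52, and 0.42 after subtraction of the chip means. Cd74 and Gpnmb had r = 0.81 there (permutation p = 3.8e-04, adjusted 0.0055), rho = 0.82, 0.84 without the 2 farthest animals, and 0.71 after subtraction of the chip means. In the CD33 group Cd74 and Gpnmb had r = 0.27 (permutation, adjusted p = 0.57). No difference between the correlations of the groups was tested.

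**Figure D4:**
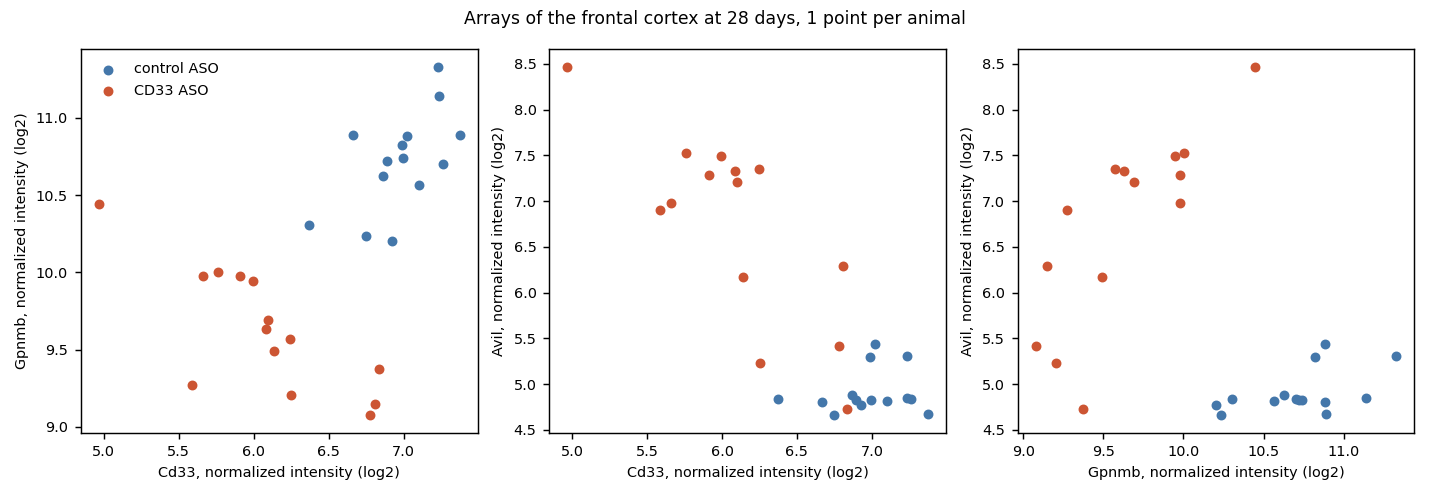
Log2 normalized intensity of Cd33, Gpnmb and Avil against each other, 1 point per animal, control ASO in blue and CD33 ASO in red. In the CD33 group Gpnmb and Avil are higher where Cd33 is lower (r = -0.78 for each), and of the 3 CD33 animals with Cd33 in the control range, all have low Gpnmb and 2 have Avil at background.

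The same cortical piece was measured in other mice infused for 14 days, 9 per ASO with controls of their own, whose pumps were then removed and whose tissue was also taken at 22 weeks. There 0 genes passed limma's threshold (0% of those tested) and 492 had an unadjusted p under 0.05 (5.05%). Of the 46 genes, 44 had the same sign at 14 days, against 61.4% of all genes, and 44 were smaller in size. For 27 of the 46 the sign was the same with an unadjusted p under 0.05 (4.06% of all genes). The 46 were chosen for their size at 28 days, so a smaller value at 14 days is no test of time. The difference between the effects at 28 and 14 days passed for 0 genes, with 261 at an unadjusted p under 0.05 (2.68%), 15 of them among the 46. The value that chose the 46 is a part of this contrast, so the 15 test nothing. Duration and the interval since the end of infusion cannot be told apart between these cohorts.

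The 14-day values of the genes with the largest differences at 28 days are given next, and no test compared groups of genes between the durations. Lgals3 had -0.88 ± 0.27 at 14 days, Gpnmb -0.81 ± 0.20, Cd33 -0.69 ± 0.17, Fcna -0.62 ± 0.18, Ms4a7 -0.52 ± 0.18 and Avil 1.40 ± 0.30. Of the class II genes H2-Aa was at -0.30 ± 0.25, H2-Ab1 at -0.23 ± 0.20, Cd74 at -0.18 ± 0.19 and H2-Eb1 at -0.07 ± 0.21. The difference of the H2-Eb1 effects was -0.80 ± 0.26 (unadjusted p = 0.0042, limma adjusted p = 1.00). Fpr2 had -0.02 ± 0.16 at 14 days, a difference of 0.79 ± 0.21 (unadjusted p = 5.2e-04, adjusted 1.00), and Ky had -0.04 ± 0.09 (difference -0.38 ± 0.11, unadjusted p = 0.0013). The smallest p of this contrast belonged to Xpo6 and Capza1, whose effects had opposite signs, 0.11 and -0.20 at 28 days against -0.20 and 0.23 at 14.

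**Figure D5:**
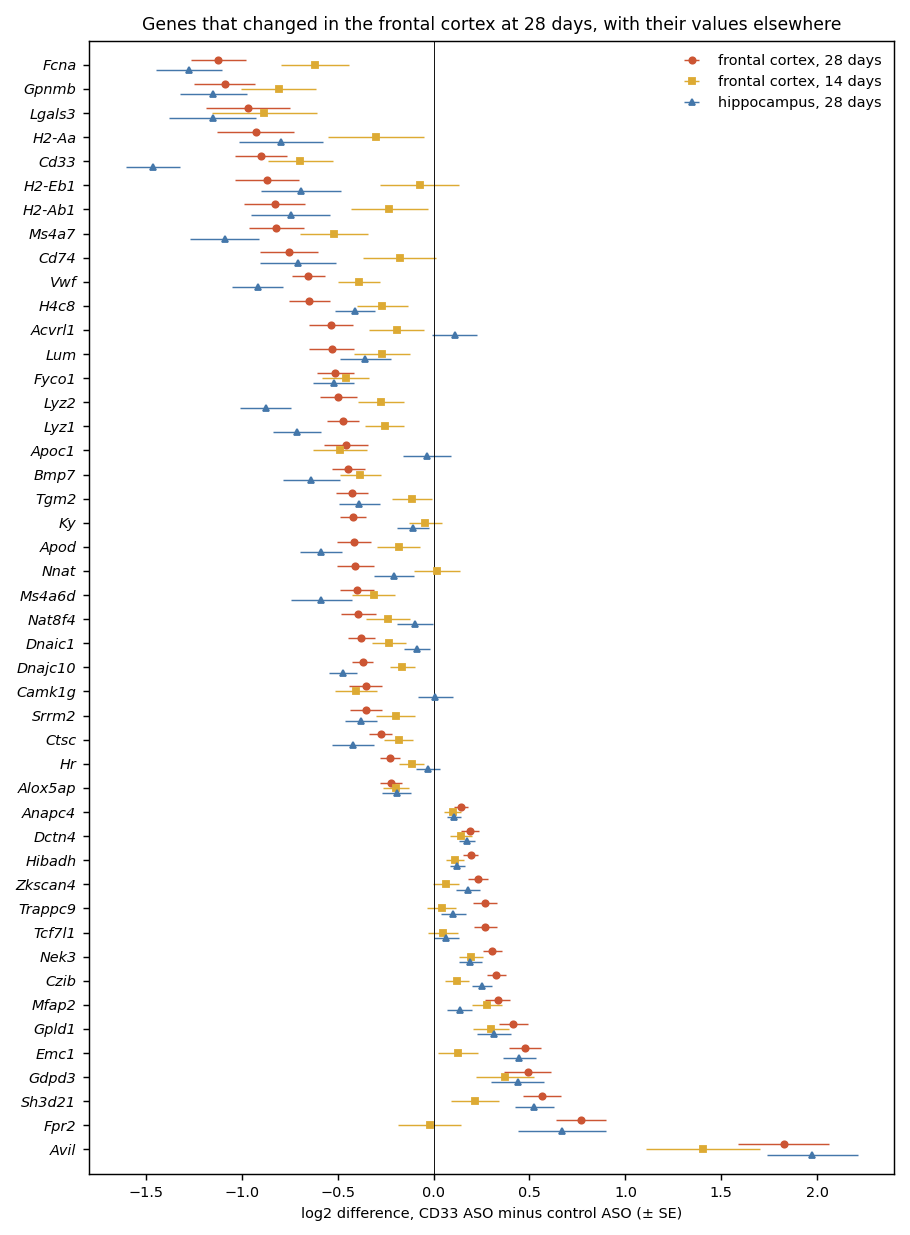
Log2 difference between the ASOs (x axis, ± SE) for the 46 genes that changed in the frontal cortex at 28 days, in that comparison (red circles), in the frontal cortex at 14 days (yellow squares) and in the hippocampus at 28 days (blue triangles). Of the 46, 44 have the same sign at 14 days, against 61.4% of all genes. In the hippocampus 44 have the same sign, and the share of all genes was not counted there. Acvrl1 is at -0.53 in the cortex and 0.11 in the hippocampus.

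In the hippocampus at 28 days, where 26 of the 28 animals also had an array, 44 of the 46 genes had the same sign. How many of all genes had the same sign in both tissues was not counted, so this count has no background beside it. The tissues also share animals, so the hippocampus is no independent repeat. The difference of the effects between the tissues passed limma's threshold for 0 genes, with 496 at an unadjusted p under 0.05 (5.09%), and 11 of the 46 were among these. The 46 were chosen for their cortical difference, which is a part of this contrast, so the 11 test nothing. Acvrl1 had the smallest p of all genes: -0.53 ± 0.12 in the cortex against 0.11 ± 0.12 in the hippocampus, a difference of -0.64 ± 0.15 (unadjusted p = 5.9e-05, adjusted 0.47). Next in p were Cnih4 (0.11 against -0.18) and Cks1brt (-0.29 against 0.32). Cd33 had -1.46 ± 0.14 in the hippocampus, 0.57 ± 0.18 further down than in the cortex (unadjusted p = 0.0027, adjusted 0.76). Camk1g had 0.01 ± 0.09 and Apoc1 -0.04 ± 0.12 in the hippocampus, with unadjusted p = 0.0025 and 0.011 for the difference (limma adjusted p = 0.76 and 0.90).

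Just inside the threshold the adjusted p was 0.049 (Alox5ap) and just outside it 0.053. Outside were Lims2, an adaptor of focal adhesions (-0.29 ± 0.07), and C2, then the histone H4 copies, Dcn and Slc6a13 given above, Ppfibp2 (0.25 ± 0.06), Ddah1, which breaks down an inhibitor of nitric oxide synthase (-0.23 ± 0.06), Tmem223 (-0.16 ± 0.04) and Ltc4s, leukotriene C4 synthase (-0.29 ± 0.07). With the chip as a block 19 further genes passed, 10 lower and 9 higher in the CD33 group. C2 had the smallest p of these (limma adjusted p = 0.025 with the block), followed by Zdhhc12 (0.15), Ano10 (0.28), Lims2, Stk39 (0.16), Itih2 (-0.55), Rapgef6 (0.33), Aldh16a1 (0.37), Slc6a13 and Spg7 (0.23), the differences being the same as without it.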

How the data were processed

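Per the labels, total RNA of left frontal cortex was measured on Illumina arrays, 1 animal each. The deposited probe table of the authors gives per array a background-subtracted signal intensity on a linear scale, not normalized between arrays, and a detection p-value per probe. A second deposited table holds the authors' processed log2 values (base read from the values, centring and steps not given in the sources used here; median 7.29 in cortex), used as an alternative. BeadStudio, GenomeStudio and Partek are named per the submitters' processing notes, without roles.

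Of 25697 probes, 18348 had 1 gene symbol in the platform annotation, which can be old, 0 had several and 7349 were unnamed here. Normalization used the neqc function (limma 3.58.1, R 4.3.3; normal and exponential background model, negative controls inferred from detection p-values, offset 16, quantiles over 90 arrays, log2), and the offset pulls differences of dim genes toward 0. Probes with detection p under 0.01 on at least 9 arrays were kept, 1 per gene (highest mean), giving 9741 genes. A model with 4 group means over 46 cortical arrays was fitted with lmFit and eBayes, 2-sided, Benjamini-Hochberg adjusted over all genes, threshold 0.05. For the contrast between tissues, 90 arrays were fitted with animals as random effects (duplicateCorrelation, 0.128). A gene undetected on every array of 1 group is given as at least N-fold: the bright group's mean over a floor, which on each dim array is the probe's own value or the lowest detected probe, whichever is higher. The test was checked on simulated data.

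Named were Cd33, every gene that passed, genes passing with the chip as a block (10 of smallest p), the 10 just outside, passing list members or the 2 of smallest p, and the 3 of smallest p per contrast. Other list members were named after their values were seen. The members, the 35 lists (540 genes, 443 with a named probe, 371 tested) and the tests were chosen with earlier results of these data known. Promoter windows came from RefSeq. The alternatives varied background, offset, normalization, filter, chip, replicate number, arrays fitted, weights, tissue covariates, processed values, probe choice and single arrays.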

Additional observations from a re-analysis of the deposited data

Results flagged for a closer look

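Of the 810 kept probes that had no gene name here, 3 passed limma's threshold in the 28-day cortical comparison, and these probes entered no gene test above. Of these, 2 rose, by 0.36 ± 0.06 (adjusted p = 2.7e-04) and 0.25 ± 0.05 (adjusted p = 0.0054), and 1 fell by 0.42 ± 0.08 (adjusted p = 0.0021). All 3 were detected on 14 arrays of each group, and 76 of the 810 had an unadjusted p under 0.05. Of the 9741 named genes 46 passed (0.472%) and 841 had such a p (8.63%). The shares among the unnamed probes were close to these.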

How the results depend on the processing

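Cd33 and the other 45 genes that passed kept their direction under each of the 15 alternative settings in which they were tested and in all 28 fits that left out 1 array, and no result reversed. Fpr2 and Avil were not tested where detection on at least 14 of the 28 arrays was required, so they had 14 settings. With tissue lists as covariates 30 genes passed in place of 46, all 30 among the 46 (19 fell, 11 rose). The other settings gave between 39 and 65: 39 with the 28 arrays fitted alone, 40 with median scaling, 40 with the mean of a gene's probes, 50 with the authors' processed values, 62 with array weights and 65 with the chip as a block. Without chip 11, chosen after seeing the data, 55 passed, of which 39 were among the 46. Leaving out 1 array gave between 36 (without CD33 replicate 7) and 59 calls (without CD33 replicate 12), and a Cd33 difference between -0.96 and -0.81. In every setting where it was tested, 23 of the 46 passed, and 35 did so in every fit without 1 array. Alox5ap, Apoc1, Dctn4 and Gdpd3 failed in 18 of these 28 fits and Camk1g in 14. The replicate numbers of the labels were not taken to pair the animals, since not every same-numbered pair correlated above 0.1. Over 14 such pairs, each on 1 chip, the deviations from the group means correlated between 0.04 and 0.29 (median 0.20, against -0.02 for other pairs), 11 of them above 0.1, and 4 CD33 arrays correlated best with their own number. With a replicate block 53 genes passed, 42 of them among the 46. Apoc1, Camk1g, Alox5ap and Dctn4 did not pass with the block, and Cd33 did. Dim genes, such as Fcna in the CD33 group and Avil in the controls, lie near background there, which limits how large a difference can be measured.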
